A study of Saccharomyces cerevisiae with 6 samples.

Results

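The glyoxylate, methylcitrate and anaplerotic enzymes of budding yeast (Saccharomyces cerevisiae) are described here through the 10 genes CIT2, MLS1, ICL1, MDH2, MDH3, CIT3, PDH1, ICL2, PYC1 and PYC2. They were taken by gene symbol from the array's annotation, out of 5449 genes measured. Each of the 10 had 1 probe set. RNA came from 6 chemostat samples, 3 of the S288C MAT a wild type in YNB medium with 10 mM 3AT and 3 of an S288C MAT a gcn4-delta strain (gcn4Δ) in YNB with 0.1 mM 3AT. A chemostat is a continuous culture in which the supply of a nutrient, here glucose, sets the growth rate. All samples were grown aerobically at 30 °C, pH 5 and a dilution rate of 0.10 per hour. The inhibitor 3AT (aminotriazole) blocks the histidine enzyme encoded by HIS3, and GCN4 encodes the activator that raises amino acid biosynthesis genes during such starvation. Strain and 3AT concentration changed together and cannot be told apart. The labels do not say whether replicates came from separate cultures, so the p-values cover the spread between these 6 samples alone, and that spread may be technical.

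The glyoxylate cycle lets yeast build sugar and amino acids from acetyl units, by passing round the carbon-losing steps of the tricarboxylic acid cycle, and its genes are known for strong repression by glucose. The methylcitrate cycle breaks down propionyl-CoA, a by-product of amino acid breakdown, in mitochondria with a related set of reactions. Anaplerotic enzymes refill the oxaloacetate pool that aspartate and its family of amino acids draw on, and on glucose this is mainly the work of pyruvate carboxylase.

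Each array gave 1 intensity per probe set, on a linear scale, from RMA, a method that subtracts background and sets all arrays to 1 distribution. The median intensity over S. cerevisiae probe sets was 665 to 712 on the 6 arrays, and the background level, the 95th percentile of named probe sets of other species, was 17.9 to 25.2. All 10 genes were above that level on all 6 arrays, and 97.1% to 97.9% of all genes were above it on each array. Genes are not independent replicates; across them Pearson's r of log2 values lay between 0.987 and 0.993 for pairs of gcn4Δ arrays, between 0.968 and 0.989 for pairs of wild-type arrays and between 0.928 and 0.970 for mixed pairs. The lowest value within a strain was that of wild type replicates 1 and 2. GCN4 read 7312, 7309 and 7248 in the wild type, and 14.5, 213 and 11.4 on the arrays labelled gcn4Δ, where replicate 2 stayed above background. HIS3 was at a log2 change of -2.27. All 6 markers of MAT a cells were above background on every array, at a summed intensity of 7526 to 10974 in the wild type and 10742 to 11501 in gcn4Δ, led by MFA2, which encodes a-factor, and STE2, which encodes the receptor for α-factor. The 4 markers of MATα cells summed to 604 to 934 and 694 to 727, and 8 markers of sporulating diploids to 1001 to 1079 and 1097 to 1237. Of the sporulation markers 7 of 8 were above background on every array, and the sums did not overlap between the strains. Since nearly all genes were above background, such counts do not set the markers apart. NDT80 was higher at 0.48 (adjusted p = 0.0243, limma) and IME1 lower at -0.43 (adjusted p = 0.0240), both named after their values were seen, and no MAT a or MATα marker passed. None of these markers was at 0, and the part of other cells in the results was not tested. With 3 arrays a group, their number limits the precision.

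The comparison asks which enzyme transcripts differed between the strains at 1 growth rate. Of the 10 genes 2 were lower in gcn4Δ, PYC2 and CIT3, none was higher, and 8 did not pass an adjusted p of 0.05 (limma on log2 values, Benjamini-Hochberg adjustment over all probe sets). Over all genes 11.3% passed, 5.34% as higher and 6% as lower. Without adjustment 2 genes were lower and 1, ICL2, was higher at p under 0.05 (limma). The share of all genes at that unadjusted p was not taken, here or below. Such counts therefore cannot be read as particular to the genes counted. The arrays of the 2 strains did not overlap for 5 of the 10 genes, with gcn4Δ above in 3 (CIT2, ICL2 and PYC1) and below in 2, against 35.7% of all genes, 21.1% above and 14.6% below. The median log2 change (gcn4Δ minus wild type) was 0.08 over the 10 genes and 0.04 over all genes, while the median size of the change without its sign was 0.36 and 0.18.

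The median over the 10 genes depended on single arrays: it was -0.27 without wild type replicate 1, 0.14 without wild type replicate 2, 0.19 without wild type replicate 3, and -0.02, 0.06 and 0.15 without gcn4Δ replicates 1, 2 and 3, against 0.01 to 0.05 over all genes. The count of genes called did too. Without wild type replicate 1 it was 4 of the 10 genes, all lower (CIT3, PDH1, ICL1 and PYC2), against 13.1% of all genes. Without wild type replicate 2 it was 1 (PYC2), against 10.1%, and without wild type replicate 3 it was 1 (CIT3), against 7.05%. Without gcn4Δ replicate 1, 2 or 3 it was 0 in limma, against 4.04%, 4.73% and 6.83% of all genes. In each of these fits 3 of the 10 genes had an unadjusted p under 0.05 (limma), a threshold at which all genes were not counted.

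**Figure D1:**
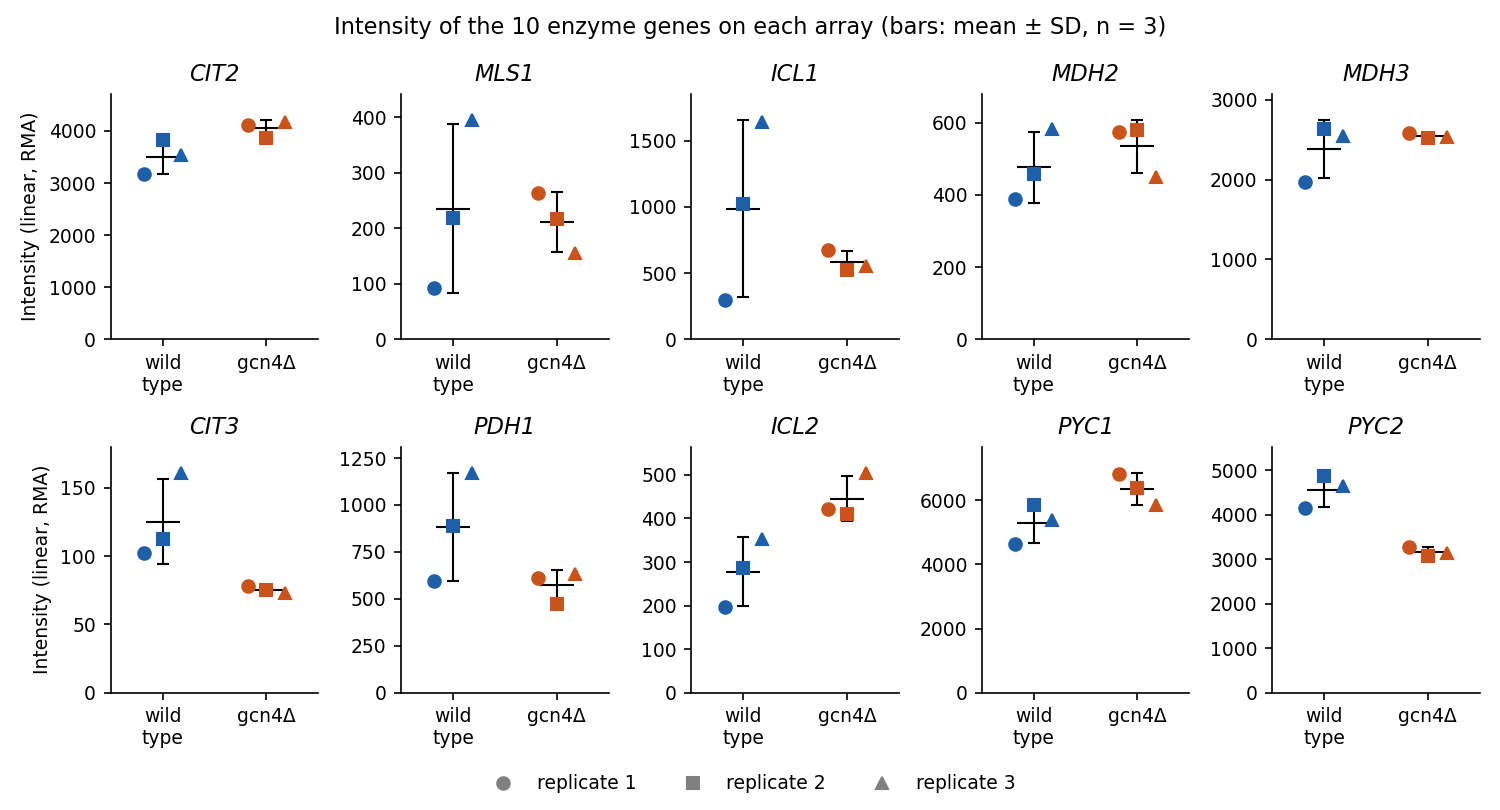
Intensity (linear scale) of each of the 10 enzyme genes on the 3 wild-type and 3 gcn4Δ arrays, each panel with its own axis from 0. Points are arrays, with the symbol giving the replicate, and bars are the mean ± SD. PYC2 and CIT3 are lower on every gcn4Δ array than on any wild-type array, while the wild-type arrays of ICL1 and MLS1 are spread wider than the difference between the strains.

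Of the pyruvate carboxylase genes PYC2 fell and PYC1 did not pass. PYC1 and PYC2 encode cytosolic isozymes that carboxylate pyruvate to oxaloacetate with biotin as the bound cofactor. PYC2 (YBR218C) read 4144, 4882 and 4657 in wild type replicates 1, 2 and 3, and 3273, 3077 and 3153 in gcn4Δ replicates 1, 2 and 3. Every gcn4Δ array lay below every wild-type array, and the gcn4Δ arrays differed from each other by only 1.06-fold. The mean fell from 4561 ± 378 to 3168 ± 98.7 (SD, n = 3 each), which is -0.52 ± 0.09 on the log2 scale (SE, adjusted p = 0.0159, limma), or 30.4% lower. Log2 changes, folds and percentages are taken over mean log2 values and differ slightly from ratios of the printed means. PYC2 kept its direction in each omission of 1 array, at -0.59 to -0.47, but it passed only without wild type replicate 1 or wild type replicate 2 (adjusted p = 0.00784 to 0.0766 over the 6 omissions).

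PYC1 (YGL062W) read 4636, 5839 and 5376 in the wild type and 6825, 6394 and 5847 in gcn4Δ. All gcn4Δ arrays lay above the wild-type arrays, although gcn4Δ replicate 3 and wild type replicate 2 nearly touched. The means were 5284 ± 606 and 6355 ± 490 (SD, n = 3 each), and the log2 change of 0.27 ± 0.12 (SE) did not pass (adjusted p = 0.179, limma), with a 95% interval of -0.00 to 0.54. It was 0.18 without wild type replicate 1.

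The ratio of PYC1 to PYC2 was also taken within each array. Relative to its wild-type mean, the log2 ratio was within 0.05 of 0 on the wild-type arrays, and it was 0.85, 0.85 and 0.68 on gcn4Δ replicates 1, 2 and 3. The ratio was thus 1.73-fold higher in gcn4Δ, a difference of 0.79 ± 0.06 on the log2 scale (SE, n = 3 each). The exact two-sided permutation test gave p = 0.1, the smallest that 3 against 3 arrays allow, and 0.3 after Benjamini-Hochberg adjustment over the 6 pairs of genes compared this way. Leaving out any 1 array gave 0.76 to 0.85. The isozymes are closely related, and to what extent their probes bind each other's RNA was not tested.

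**Figure D2:**
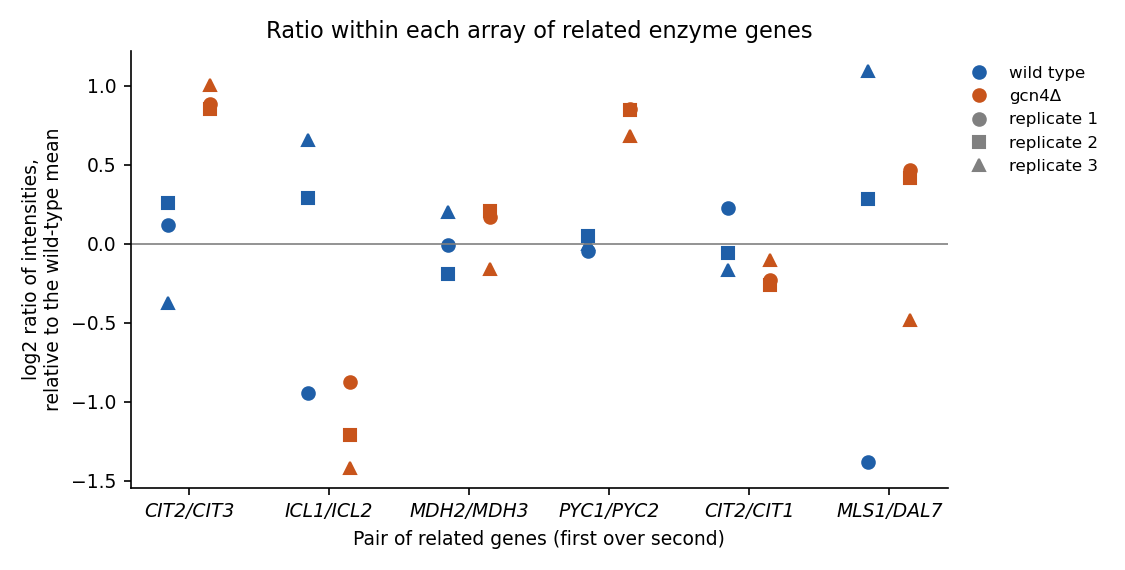
Log2 ratio of the intensities of 2 related genes within each array, with the mean of the wild-type arrays set to 0 for each pair. Points are arrays, coloured by strain and shaped by replicate. The PYC1/PYC2 and CIT2/CIT3 ratios are higher on all 3 gcn4Δ arrays than on any wild-type array, and the other 4 pairs overlap.

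Of the 3 methylcitrate genes CIT3 fell, and PDH1 and ICL2 did not pass. CIT3 encodes a mitochondrial citrate and methylcitrate synthase, PDH1 a 2-methylcitrate dehydratase (despite its name it is no part of pyruvate dehydrogenase), and ICL2 a mitochondrial 2-methylisocitrate lyase. CIT3 (YPR001W) read 102, 112 and 161 in the wild type and 78.3, 74.8 and 72.6 in gcn4Δ. The gcn4Δ arrays lay close together and below all wild-type arrays, with wild type replicate 3 well above the other two. The mean fell from 125 ± 31.2 to 75.3 ± 2.88 (SD, n = 3 each), and mean log2 values differed by -0.71 ± 0.17 (SE, adjusted p = 0.0440, limma), or 38.7% lower. CIT3 passed without wild type replicate 1 (-0.84, adjusted p = 0.0217) and without wild type replicate 3 (-0.51, adjusted p = 0.0414). It did not pass in the other 4 omissions, with adjusted p up to 0.135. Its intensities were a few times the background level.

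PDH1 (YPR002W) read 595, 887 and 1168 in the wild type and 609, 474 and 629.6 in gcn4Δ. Wild type replicate 1 lay among the gcn4Δ arrays, and the other two wild-type arrays lay above them. The log2 change of -0.59 ± 0.25 (SE) did not pass (adjusted p = 0.178, limma). Without wild type replicate 1 it was -0.84 ± 0.17 and passed (adjusted p = 0.0284), and without wild type replicate 3 it was -0.36 (adjusted p = 0.346).

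ICL2 (YPR006C) went the other way, with 196, 285 and 353 in the wild type and 421, 410.2 and 504 in gcn4Δ. All gcn4Δ arrays were above all wild-type arrays. The mean was 278 ± 78.8 in the wild type and 445 ± 51.3 in gcn4Δ (SD, n = 3 each), with gcn4Δ higher by 1.64-fold over mean log2 values. The log2 change of 0.71 ± 0.22 (SE) missed the threshold (adjusted p = 0.0827, limma), and it missed it in all 6 omissions of 1 array as well, at 0.48 to 0.91 (adjusted p from 0.0518 to 0.208).

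These 3 genes lie near each other on chromosome XVI. In the R64 reference annotation, used for gene order only, CIT3 and PDH1 are neighbours and 3 protein-coding genes stand between PDH1 and ICL2. The genes in between, named here for their position, were YPR003C at a log2 change of -0.18 (adjusted p = 0.213), AIM45, a mitochondrial electron transfer flavoprotein subunit, at -0.21 (adjusted p = 0.196), and HAL1, a gene of salt tolerance next to ICL2, at 0.80 (adjusted p = 0.119). HAL1 read 161, 288 and 358 in the wild type and 476, 451 and 406 in gcn4Δ, so that its arrays, like those of ICL2, did not overlap between the strains. Of the 6 genes from CIT3 to ICL2, CIT3 passed the test and the other 5 did not.

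**Figure D3:**
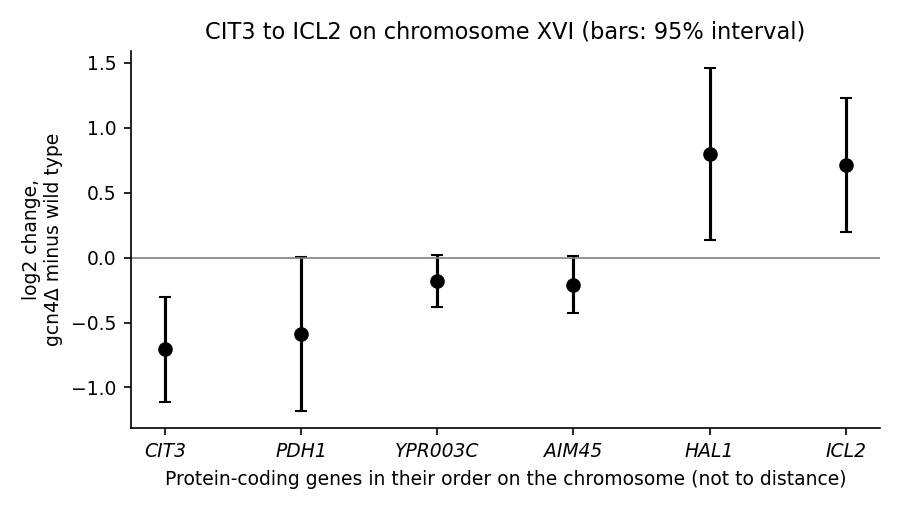
Log2 change (gcn4Δ minus wild type) of the 6 protein-coding genes from CIT3 to ICL2, in their order on the chromosome and not at scale. Points are the fitted changes and bars their 95% intervals from limma, without adjustment. CIT3 and PDH1 at one end have negative values, and HAL1 and ICL2 at the other end positive ones.

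None of the 5 glyoxylate cycle genes passed. CIT2 encodes the peroxisomal citrate synthase of the cycle and is known as the reporter of retrograde signalling from mitochondria to the nucleus. CIT2 (YCR005C) read 3171, 3820 and 3535 in the wild type and 4123, 3860 and 4163 in gcn4Δ. The arrays did not overlap, but gcn4Δ replicate 2 and wild type replicate 2 nearly met. The means were 3508 ± 325 and 4049 ± 164 (SD, n = 3 each), and the log2 change was 0.21 ± 0.10 (SE, adjusted p = 0.211, limma), with a 95% interval of -0.02 to 0.44. Without wild type replicate 1 it was 0.14. CIT1, the mitochondrial citrate synthase of the tricarboxylic acid cycle, was at 0.41 ± 0.16 (adjusted p = 0.154, limma), and the CIT2 to CIT1 ratio overlapped between the strains (log2 difference -0.20 ± 0.13, exact permutation p = 0.2, 0.3 adjusted over 6 pairs). The CIT2 to CIT3 ratio did not overlap and was 1.89-fold higher in gcn4Δ (log2 difference 0.92 ± 0.20, exact permutation p = 0.1, 0.3 adjusted over 6 pairs).

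ICL1 encodes isocitrate lyase, which splits isocitrate into succinate and glyoxylate, and MLS1 encodes malate synthase, which joins that glyoxylate to acetyl-CoA. ICL1 (YER065C) read 300.0, 1025 and 1637 in wild type replicates 1, 2 and 3, and 676, 521 and 555 in gcn4Δ. The wild-type arrays were spread 5.46-fold, on both sides of the gcn4Δ arrays, which were spread 1.30-fold. The log2 change over all arrays was -0.45 ± 0.57 (SE, adjusted p = 0.629, limma), with a 95% interval of -1.81 to 0.90. It was -1.16 ± 0.22 without wild type replicate 1, which passed (adjusted p = 0.0214), and 0.07 ± 0.50 without wild type replicate 3 (adjusted p = 0.949). The call thus depended on wild type replicate 1 and the sign on wild type replicate 3.

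MLS1 (YNL117W) read 92.2, 218 and 395 in the wild type and 263, 216 and 155 in gcn4Δ. Here too the wild-type arrays lay on both sides of the gcn4Δ arrays, with a spread of 4.28-fold against 1.69-fold. The log2 change was 0.05 ± 0.50 (SE, adjusted p = 0.959, limma), or -0.51 without wild type replicate 1 (adjusted p = 0.330) and 0.54 without wild type replicate 3 (adjusted p = 0.443). DAL7, which encodes a second malate synthase and is known as an allantoin pathway gene, read 356, 265 and 274 in the wild type and 282, 240 and 320 in gcn4Δ, at a log2 change of -0.08 (adjusted p = 0.751). Wild type replicate 1, the lowest array for MLS1, was the highest for DAL7.

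The ratio of ICL1 to ICL2 fell short of separating the strains. The log2 ratio was lower in gcn4Δ by 1.17 on average (difference -1.17 ± 0.51, exact permutation p = 0.2, 0.3 adjusted over 6 pairs), yet wild type replicate 1 lay among the gcn4Δ arrays. The MLS1 to DAL7 ratio differed by 0.13 ± 0.79 (exact permutation p = 0.8, also 0.8 after adjustment).

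MDH2 and MDH3 encode the cytosolic and the peroxisomal malate dehydrogenase, which interconvert malate and oxaloacetate. MDH2 (YOL126C) read 388, 458 and 581 in the wild type and 575, 578 and 450.3 in gcn4Δ, with overlapping arrays. Its log2 change was 0.18 ± 0.17 (SE, adjusted p = 0.533, limma), and leaving out 1 array moved it from 0.04 (wild type replicate 1 left out) to 0.33 (wild type replicate 3 left out). MDH3 (YDL078C) read 1973, 2638 and 2547 in the wild type and 2578, 2521 and 2531 in gcn4Δ. Its gcn4Δ arrays agreed within 1.02-fold and lay within the wild-type range. The log2 change of MDH3 was 0.10 ± 0.12 (SE, adjusted p = 0.613, limma), and -0.03 without wild type replicate 1. The 95% intervals of -0.24 to 0.59 for MDH2 and -0.19 to 0.40 for MDH3 lie within 2-fold on either side. MDH1, the mitochondrial isozyme, was at 0.23 ± 0.12 (adjusted p = 0.266), and the MDH2 to MDH3 ratio differed by 0.07 ± 0.16 (log2, exact permutation p = 0.6, 0.72 adjusted over 6 pairs).

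**Figure D4:**
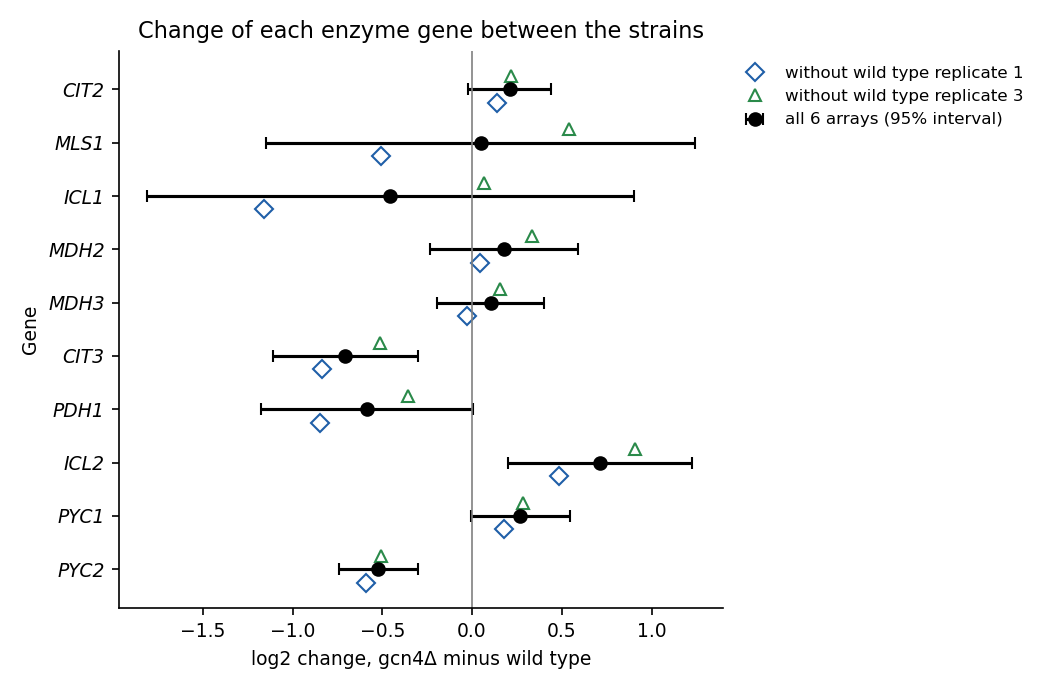
Log2 change (gcn4Δ minus wild type) of each of the 10 enzyme genes, with filled points and bars for all 6 arrays and their 95% interval from limma, without adjustment. Open symbols give the change without wild type replicate 1 or without wild type replicate 3. ICL1 moves from -1.16 to 0.07 and MLS1 from -0.51 to 0.54 between these omissions, while PYC2 moves only from -0.59 to -0.51.

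The spread between wild-type arrays had 1 direction in all 10 genes. Wild type replicate 1 was the lowest of the 3 wild-type arrays for 10 of the 10, against 32.4% of all genes, and the highest was replicate 3 for 6 genes and replicate 2 for 4. Over the 10 genes replicate 1 deviated from the other wild-type arrays by a median of -0.40 on the log2 scale, against 0.06 over all genes. The SD of log2 values was larger in the wild type than in gcn4Δ for all 10 genes, against 67.1% of all genes. The SD in the wild type was 1.26 for ICL1 and 1.06 for MLS1, larger than for 99.5% and 99.0% of all genes, and it was 0.12 for PYC2 and 0.13 for CIT2, larger than for 38.0% and 44.0%. RNA from whole cultures cannot tell fewer cells with a transcript from less of it per cell.

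In a list of gluconeogenic and Cat8 target genes, several of them known for repression by glucose, most genes had a like direction. Replicate 1 was the lowest wild-type array for 11 of 14, at a median deviation of -0.55. The size differed, and MAE1, counted among the 11, read 1884, 1919 and 2126 in the wild type. Whether each gene of the list is a Cat8 target or repressed by glucose was not tested. The mitochondrial carrier gene SFC1, whose product exchanges succinate for fumarate, read 53.7, 313 and 439 in the wild type and 414, 314 and 210 in gcn4Δ (named after its values were seen). ADH2, the alcohol dehydrogenase of ethanol use, went against the set, with 796 in replicate 1 and 123 and 115 in the other wild-type arrays. So did ADY2, with 249 in replicate 1 and 63.0 and 86.6 in the others. ACS1 was lowest in replicate 2, at 542, against 690 in replicate 1 and 805 in replicate 3. These genes too are named after their values were seen. What set wild type replicate 1 apart was not tested.

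**Figure D5:**
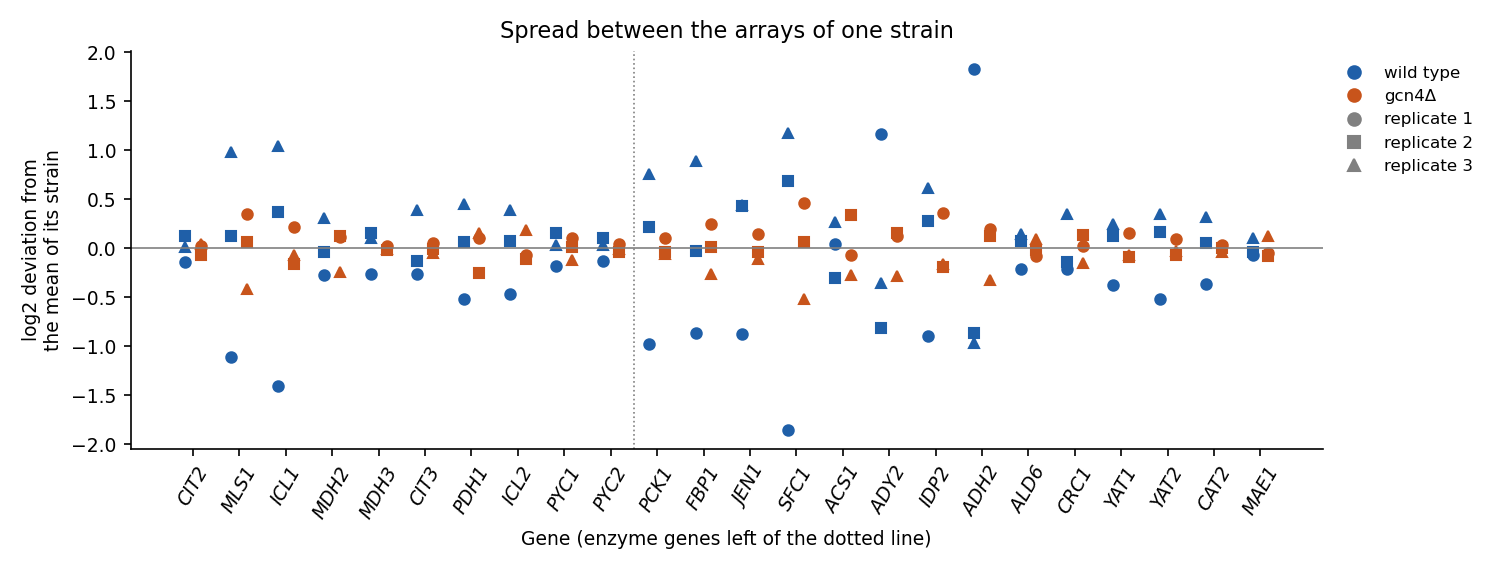
Log2 deviation of each array from the mean of its strain, for the 10 enzyme genes on the left of the dotted line and all 14 genes of the gluconeogenic list on the right. Colours give the strain and symbols the replicate. Wild type replicate 1 is the lowest wild-type array for all 10 enzyme genes and for 11 of the 14 on the right, and the gcn4Δ arrays lie closer to 0 than the wild-type arrays for most genes.

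In that gluconeogenic list 1 of 14 genes was higher in gcn4Δ and 3 were lower, against 5.34% and 6% of all genes. The median log2 change of the list was 0.30 against 0.04 over all genes. That median was 0.05 without wild type replicate 2, 0.16 without wild type replicate 1, 0.20 without gcn4Δ replicate 2 and 0.28 to 0.39 in the other 3 omissions. JEN1, the lactate and pyruvate permease, read 326, 808 and 812 in the wild type and 1758, 1551 and 1467 in gcn4Δ, or 1.41 ± 0.35 on the log2 scale (SE, adjusted p = 0.0478, limma), and passed in 2 of the 6 omissions, without wild type replicate 1 or replicate 2. The genes that fell were MAE1, mitochondrial malic enzyme, by 1.42, CAT2, a carnitine acetyltransferase, by 1.04, and YAT2, another carnitine acetyltransferase, by 0.93 on the log2 scale. MAE1 passed in all 6 omissions and CAT2 in 4, and YAT2 only without wild type replicate 1. Without wild type replicate 1 the counts were 3 higher and 3 lower, where 13.1% of all genes were called in either direction against 11.3% with all arrays.

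Transcription factors and kinases that act on these genes were read against the same 11.3% of all genes called, 5.34% higher and 6% lower. In the list of Snf1, Cat8 and Adr1 regulators 1 of 11 was higher and 0 were lower (4 and 0 at an unadjusted p under 0.05, limma). Its median was 0.17 (0.10 to 0.25 over the omissions of 1 array). CAT8 at 1.05 ± 0.42 (SE, adjusted p = 0.162, limma) and ADR1 at 0.89 ± 0.34 (adjusted p = 0.144) did not pass. SIP4 was at -0.68 ± 0.55 (adjusted p = 0.447), near the background level and above it on only 5 of the 6 arrays. All 3 were lowest in wild type replicate 1 among the wild-type arrays, and they are named after their values were seen. RDS2, a zinc cluster factor of gluconeogenic and glyoxylate genes, was at 0.41 ± 0.08 (SE, adjusted p = 0.0207, limma), with a call in 2 of 6 omissions, those of wild type replicates 1 and 2. In the list of retrograde regulators and targets 2 of 12 were lower and 0 higher (4 and 1 unadjusted), with a median of -0.06 (-0.13 to -0.02 over the omissions of 1 array). RTG3, a basic helix-loop-helix factor that with Rtg1 activates CIT2, read 809, 753 and 709 in the wild type and 467, 445 and 430.0 in gcn4Δ, and fell by 0.76 ± 0.09 (SE, adjusted p = 0.00297, limma), in all 6 omissions. RTG2, the upstream sensor protein, was at -0.35 (adjusted p = 0.0440), a call that was lost in each of the 6 omissions. CIT2, the known target of these factors, did not pass.

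Biotin genes stood next to the pyruvate carboxylases, whose cofactor they supply. Of 7 measured, 3 were lower and 0 higher, against 6% and 5.34% of all genes (3 and 0 unadjusted). The median log2 change was -0.31, or -0.61 without wild type replicate 1, -0.55 without wild type replicate 2, -0.47 without gcn4Δ replicate 3 and -0.31 to -0.22 in the other 3 omissions. BIO3 and BIO4, which encode successive enzymes on the way to biotin, fell by 1.23 each (BIO3 -1.23 ± 0.16, adjusted p = 0.00539, and BIO4 -1.23 ± 0.15, adjusted p = 0.00362, limma). VHR1, the activator of biotin uptake and synthesis genes, read 1905, 1939 and 2125 in the wild type and 702, 696 and 698 in gcn4Δ, and fell by 1.51 ± 0.08 (adjusted p = 0.000108, limma). All 3 passed in each of the 6 omissions, and BPL1, the ligase that attaches biotin to pyruvate carboxylase, was at -0.01 (adjusted p = 0.940, named after its value was seen). The other measured genes did not pass in limma. They were BIO2 at -0.31 (adjusted p = 0.446), BIO5 at 0.31 (adjusted p = 0.427) and VHT1 at -0.21 (adjusted p = 0.700), also named after their values were seen.

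In the list of oxaloacetate use and mitochondrial exchange, 4 of 13 genes were lower and 0 higher, against 6% and 5.34% of all genes (4 and 2 unadjusted). The median was -0.02 (-0.10 to 0.02 over the omissions). This list is wider than oxaloacetate use, since it also holds mitochondrial carriers and glutamate genes such as GLT1. ODC2, a mitochondrial carrier of oxodicarboxylates, was at a log2 change of -1.85, GLT1, glutamate synthase, at -1.62 and AAT1, mitochondrial aspartate aminotransferase, at -0.94. AAT2, the cytosolic aspartate aminotransferase that turns oxaloacetate into aspartate, was at -0.65 ± 0.11 (SE, adjusted p = 0.0125, limma) and is named after its value was seen. It passed in 5 of the 6 omissions and the other 3 genes in all 6. The carrier gene OAC1, for oxaloacetate entry into mitochondria, did not pass at -0.15 (adjusted p = 0.318, also named after its value was seen).

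Pyruvate dehydrogenase is the complex that competes with pyruvate carboxylase for pyruvate. In its list 2 of 9 genes were lower and 0 higher, against 6% and 5.34% of all genes (2 and 0 unadjusted). The median was -0.04 (-0.07 to -0.01 over the omissions). PKP2, a kinase of the complex, read 1321, 1515 and 1624 in the wild type and 564, 536 and 629 in gcn4Δ and fell by 1.37 (adjusted p = 0.000614, limma) in all 6 omissions. PDX1, which binds the E3 component in the complex, fell by 0.45 (adjusted p = 0.0266), a call in 2 of 6 omissions. Among 10 measured paralogs and neighbouring steps 1 was higher and 0 lower, against 5.34% and 6% of all genes (2 and 2 unadjusted). Their median was 0.09 (0.02 to 0.20 over the omissions). The 1 gene was GOR1, glyoxylate reductase, which read 721, 932 and 911 in the wild type and 1500, 1565 and 1209 in gcn4Δ (log2 change 0.74 ± 0.15, adjusted p = 0.0231, limma, 3 of 6 omissions). Of 8 measured genes of the GID complex 0 passed in limma, against 11.3% of all genes. This complex is the ubiquitin ligase that marks gluconeogenic and glyoxylate enzymes for breakdown when glucose returns. VID24, its substrate receptor, had the largest change at -0.70 (adjusted p = 0.0705) and was the 1 gene of the list with an unadjusted p under 0.05, at 0.0101.

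Genes with the profile most like that of a member were found by the root mean square difference of log2 values over the 6 arrays, each gene centred on its own mean, among 5265 other genes above background on all arrays. The 3 nearest to CIT2 were YSA1, VPS35 and NGL3, at differences of 0.01, 0.02 and 0.02. The 3 nearest to PYC1 were ETR1, BDH1 and SPP2, at 0.02, 0.04 and 0.05. The 3 nearest to PYC2 were RIB3, a riboflavin synthesis enzyme, WAR1, a factor of weak acid stress, and LYS21, homocitrate synthase of lysine synthesis, at 0.03, 0.04 and 0.04. RIB3, WAR1 and LYS21 fell by 0.54, 0.55 and 0.50 on the log2 scale. That this is close to the size of the PYC2 change follows from how they were picked.

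ICL1 and MLS1 had no such near neighbours. CTT1, cytosolic catalase, was the nearest gene to both, at a root mean square difference of 0.25 from ICL1 and 0.26 from MLS1. CTT1 read 227, 742 and 835 in the wild type and 515, 471 and 398 in gcn4Δ, with wild type replicate 1 the lowest of all arrays. Next to ICL1 came PHO3, an acid phosphatase, and NDE2, an external NADH dehydrogenase of mitochondria, at 0.26 and 0.29, and next to MLS1 came ICS2 and SNO4, at 0.28 each. PHO3 and SNO4 have close relatives whose RNA their probe sets may share, which was not tested. ICL1 and MLS1 themselves differed by 0.34. The likeness rests on 6 arrays that share strain and medium, and it gives no test.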

How the data were processed

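RNA of 6 samples was measured on 1 array each, 3 per group. The authors deposited linear intensity values, summarised per probe set by RMA (per the submitters' processing notes). Its version is not stated in the labels. RMA evens out changes that move most genes together. Log2 was taken here with no pseudocount and no further scaling, and the table held 0 columns besides the 6 arrays.

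The platform annotation names 1 gene for 7244 of 10928 probe sets, several for 1 and none here for 3683, and 5498 matched S. cerevisiae genes of the R64 table by gene identifier (5449 genes, 12 symbols updated, brightest probe set by mean for 47 genes with several). The 95th percentile of the other 1746 was the background level. No coordinates are printed, since the array's build is not given, and sequences were not used here.

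The gene test was limma 3.58.1 under R 4.3.3 (lmFit, eBayes, gcn4Δ minus wild type, no covariates), Benjamini-Hochberg adjustment over 5498 probe sets and a threshold of 0.05. The intervals are 95% intervals of the fit. Pairs of genes were compared with exact permutation tests (scipy 1.17.1). The test was tested on simulated data. The genes and lists were chosen with earlier results of these data known. Some genes count in 2 lists (ACO1, ACS1 and IDP2).

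Genes were named by a rule: the 10 enzyme genes, CIT1, MDH1 and DAL7, GCN4 and HIS3, up to 3 called genes per direction of each list (or the 1 with the largest change), the brightest markers, and the 3 genes nearest in profile to CIT2, ICL1, MLS1, PYC1 and PYC2. Alternatives were a replicate block, omission of each array, quantile normalization again, median centring, omission of the lowest 25% of probe sets, array weights, trend with robust variances, mean probe sets, a 2-fold minimum, a threshold of 0.01 and 16 added before the log. The last was added for the counts, and the block for the pairs, after seeing the data. Replicate numbers did not pair the samples: deviations from the group means correlated across genes at -0.34, -0.39 and -0.23 for same-numbered arrays. For differently numbered arrays r was -0.12 to 0.56, highest for wild type replicate 2 with gcn4Δ replicate 1. Whether arrays of the 2 strains share a batch under another numbering was not tested. Plots were made with matplotlib 3.10.9 (Python 3.11.15).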

Additional observations from a re-analysis of the deposited data

How the results depend on the processing

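PYC2 and CIT3 kept their direction under every alternative in which they were tested, but not always their call. Leaving out 1 array gave 220 to 713 genes called against 618, and 0 to 4 of the 10 enzyme genes against 2. The 4 were called without wild type replicate 1 (CIT3, PDH1, ICL1 and PYC2). The count was 1 without wild type replicate 2 (PYC2) or wild type replicate 3 (CIT3). It was 0 without any one of the gcn4Δ arrays, where 3 had an unadjusted p under 0.05 in limma, with no share of all genes taken. With the replicate number as a block, 210 genes and 0 enzyme genes passed in limma (4 enzyme genes at an unadjusted p under 0.05, again without a share of all genes). Adjusted p under the block was 0.0994 for PYC2 and 0.114 for CIT3 (limma). With equal groups the block cannot alter the pair differences, at 0.79 for PYC1/PYC2. Its exact paired permutation p of 0.25 is the smallest that 3 pairs allow. A threshold of 0.01 gave 224 and 0, and a 2-fold minimum 174 and 0. Array weights, whose estimate did not fully converge, gave 1443 and 4 (CIT3, PDH1, ICL2 and PYC2). Trend with robust variances called 1 enzyme gene, PYC2, as did omission of the lowest 25% of probe sets, which removed CIT3, ICL2 and MLS1. Signs turned for ICL1 (-1.16 to 0.066 over the omissions of 1 array), MLS1 (-0.51 to 0.54, and -0.0015 with array weights) and MDH3 (-0.027 to 0.18), and for the MDH2/MDH3 (-0.021 to 0.19) and MLS1/DAL7 (-0.56 to 0.68) ratios. The cause was not tested. CIT3 was at -0.61 and still called with 16 added before the log.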
